A study of Mus musculus with 9 samples.

Results

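Fatty acid oxidation, ketogenesis and butyrate use were followed through 39 genes in the colon of mice with and without colitis. The genes were chosen by symbol for their roles in butyrate uptake, mitochondrial and peroxisomal fatty acid oxidation, ketone body metabolism and the PPAR regulators of these pathways, and 39 of the 27719 genes in the count table are members. The choice was made with earlier results of these data known. Enough reads for a test were found for 36 of the members. The other 3, Pdk4, Acox2 and Acot12, had between 0 and 9 reads in a mouse.

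The 9 C57BL/6J mice formed 3 groups of 3, with 1 library of colon RNA per mouse. Control mice drank distilled water. DSS mice drank 2.5% dextran sodium sulfate (DSS), a sulfated polysaccharide that injures the colonic epithelium and is used as a chemical model of colitis, for 7 days. DSS + EA mice received the same DSS and, after 5 days of modeling, electroacupuncture (EA) of 30 minutes a day for 5 days at both ST36 (Zusanli) points of the hind legs, with 2 Hz and 0.2 mA. Per the study's methods the control and DSS mice were held in the frame for the same time without EA. Age and sex are not given in the sources used here, and these libraries include no mice with needles at other points or without current.

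Butyrate is a short-chain fatty acid made by bacteria in the lumen of the colon, and it is the main fuel of colonocytes, the absorptive cells that line the colon. It enters through the transporters SLC16A1 (MCT1) and SLC5A8, is joined to coenzyme A and is shortened in mitochondria by cycles of dehydrogenation, hydration, dehydrogenation and thiolysis, while longer fatty acids first need an acyl-CoA synthetase and the carnitine shuttle. Electrons leave through the electron transfer flavoprotein, acetyl-CoA enters the TCA cycle or ketone bodies, and peroxisomes shorten very long and branched chains. PPARA and PPARG are nuclear receptors that bind fatty acids and switch on many of these genes, with PPARGC1A as a coactivator.

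Library totals lay between 2627695 and 4235576 reads, and levels are given as CPM, read counts scaled to a common library total, after scaling of library totals with TMM factors, which equalise most genes between libraries. A fold change was taken as passing the test where the Benjamini-Hochberg adjusted p of edgeR's quasi-likelihood test was under 0.05 over the 12566 genes tested. All adjusted p values below come from that fit. A DEG is a gene with an unadjusted P under 0.01 and a log2 fold change beyond 2.5, the thresholds of the study. Errors after a level are SD over 3 mice, and errors after a log2 fold change are its SE. Whole colon was measured, so that fewer cells of a type and less RNA per cell cannot be told apart. All 12 epithelial markers were read in each of the 9 libraries. The summed level of 15 digestive enzyme genes of pancreatic acinar cells was between 707 and 48048 CPM in the DSS + EA mice, against 372 to 958 CPM in control and 44.5 to 103 CPM in DSS mice.

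The members were lower in DSS colon as a group of genes and stood nearer to control in DSS + EA colon. Their summed level was between 3473 and 4195 CPM in the control mice, between 1321 and 2401 CPM in the DSS mice and between 3216 and 3534 CPM in the DSS + EA mice. The DSS mice did not overlap either of the other groups in this sum. Of the 36 tested members, 27 fell in DSS against control and 0 rose, while 19.5% of all tested genes fell and 21.5% rose. The median log2 fold change of the members was -1.34, against 0.02 over all tested genes. Of the same 36, 19 were higher in DSS + EA than in DSS and 0 were lower, where 17.2% of all tested genes were higher and 18.3% lower. The median was 1.07 there, against -0.02 over all tested genes. The DSS mice enter both comparisons, so that the second is not independent of the first. The members were chosen with earlier results of these data known, so that these shares describe them and do not test the pathway.

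**Figure D1:**
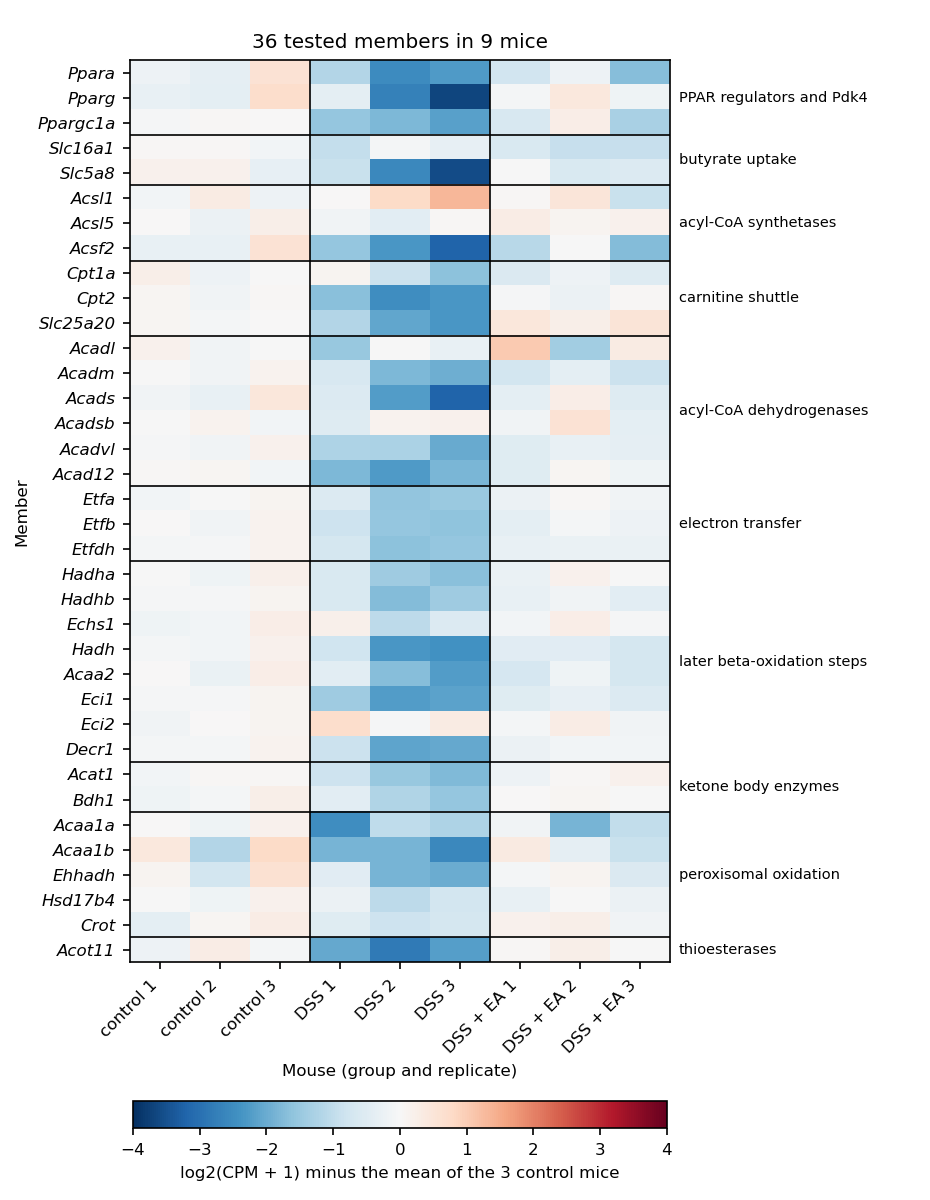
Heat map of the 36 tested members (vertical axis, grouped by role) in the 9 mice (horizontal axis). Colour is log2(CPM + 1) minus the mean of the 3 control mice, with blue for lower and red for higher values. The DSS columns are mostly blue and palest in DSS mouse 1, while Acsl1 and Eci2 are not blue in any DSS mouse beyond their spread in control.

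Groups that did not overlap gave a like count. All 3 DSS mice were below all 3 control mice for 27 members, where 26% of all tested genes did so. All 3 DSS + EA mice were above all 3 DSS mice for 22 members, where 24.3% of all tested genes did so. DSS mouse 1 was the highest DSS mouse for 29 of the 36 members, and DSS mouse 3 the lowest for 17. In the DSS + EA group mouse 2 was the highest for 26 members and mouse 3 the lowest for 18. Without DSS mouse 1 the count that fell was 30, and 1 rose, where 3134 of 13341 tested genes fell and 3266 rose. Without that mouse 29 members were higher and 2 lower in DSS + EA against DSS, where 3050 of 13341 tested genes were higher and 3011 lower. Without DSS mouse 2 only 10 members were higher, where 1581 of 12931 tested genes were higher. Leaving out any 1 of the 3 DSS + EA mice gave 25 members lower in DSS and 14 or 15 higher in DSS + EA. Over all 13407 or 13462 genes tested in these fits, 2341 to 2438 were lower in DSS and 1410 to 1716 higher in DSS + EA.

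The epithelium moved with the members. The mean log2 CPM of 12 epithelial markers, among them Epcam, Cdh1 and Krt8, lay between 8.48 and 8.70 in control mice, was 8.08, 7.27 and 6.09 in DSS mice 1, 2 and 3, and lay between 8.37 and 8.63 in DSS + EA mice. Of these 12 markers 6 fell in DSS and 4 were higher in DSS + EA against DSS. Of 13 markers of surface colonocytes 9 fell in DSS, their median on the log2 scale being -2.42, and 1 was at 0 in DSS mouse 3. All 12 leukocyte markers rose in DSS, from a summed 252 to 300 CPM in control to 911 to 5729 CPM in DSS, and were at 580 to 734 CPM in DSS + EA. The mean log2 CPM of the 12 epithelial markers was subtracted from that of the members. The difference was between -3.23 and -3.10 in control and was -3.47, -3.33 and -2.28 in DSS mice 1, 2 and 3. In DSS + EA it was between -3.42 and -3.04. The ranges overlapped on this scale, with DSS mice 1 and 2 below all control mice and DSS mouse 3 above all other mice. With the 13 surface colonocyte markers subtracted instead, the difference was between -2.804 and 0.042 in DSS. It was between -3.299 and -3.003 in control and between -3.28 and -3.195 in DSS + EA. On this second scale all DSS mice were above all mice of the other groups.

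**Figure D2:**
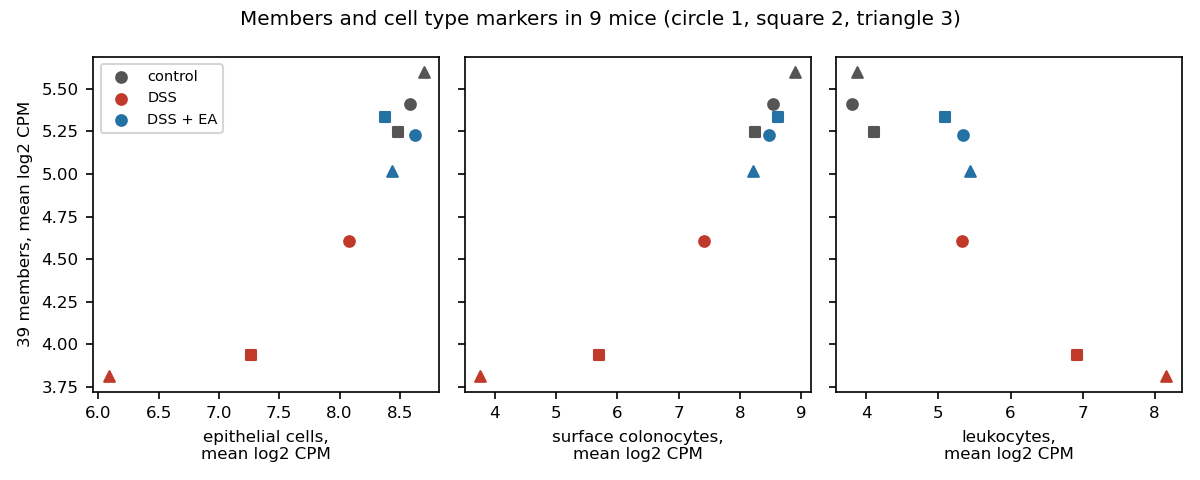
Mean log2 CPM of the 39 members (vertical axis) against the mean log2 CPM of 12 epithelial, 13 surface colonocyte and 12 leukocyte markers (horizontal axes), with 1 point per mouse. DSS mice 2 and 3 are lowest for members and both epithelial lists and highest for leukocyte markers, and DSS mouse 1 lies between them and the other 6 mice on the member axis.

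When the libraries were scaled to the 12 epithelial markers in place of TMM, most of these calls were lost. In DSS against control 5 members then passed, with Acsl1, Acsl5, Acadsb and Eci2 higher and Acaa1b lower. Over all 12566 tested genes 7507 were then higher and 363 lower. The median of the members was 0.09 on this scale and that of all tested genes 1.65, and 4.61% of all calls were lower against 47.6% with TMM. In DSS + EA against DSS 6 members passed, with Acaa1b and Acot11 higher and Slc16a1, Acsl1, Acadsb and Eci2 lower. Over all 12566 tested genes 317 were higher and 7082 lower there. The median of all tested genes was -1.55 and that of the members -0.28. The log2 fold change had the other sign for 19 of 36 members in each of these comparisons. The directions below are those per total RNA, and all that are called lower in DSS, apart from Acaa1b, are lower per total RNA and did not pass the test per epithelial marker RNA. The part that loss of epithelial cells has in them was not tested.

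**Figure D3:**
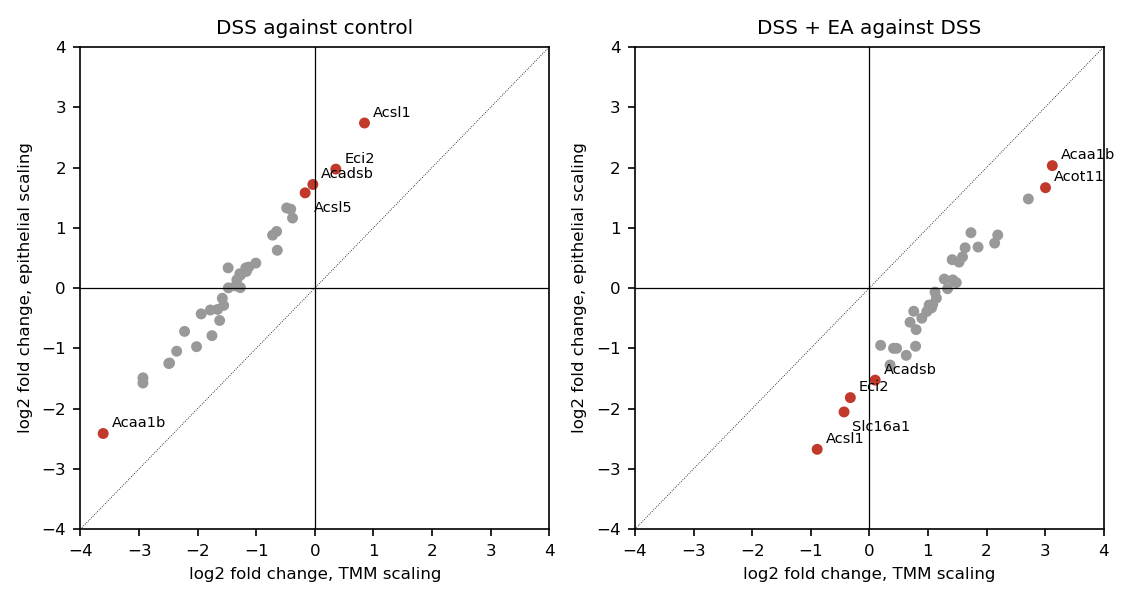
Log2 fold changes of the 36 tested members with TMM scaling (horizontal axis) and with scaling to 12 epithelial markers (vertical axis), for DSS against control (left) and for DSS + EA against DSS (right). Red points passed the test under epithelial scaling, and the dotted line marks equal values. Acaa1b alone is called lower, and 4 members higher, in DSS against control under epithelial scaling. Over all 12566 tested genes 363 were lower and 7507 higher there.

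Among the regulators, Ppara was at 7.06, 6.26 and 12.95 CPM in the control mice, at 3.19, 0.643 and 0.927 CPM in the DSS mice and at 4.54, 7.04 and 1.89 CPM in the DSS + EA mice. All DSS mice were below all control mice, and DSS + EA mouse 3 lay within the DSS range. Ppara, the receptor that drives fatty acid oxidation in fasting, was 5.63-fold lower in DSS (log2 fold change -2.49 ± 0.63, adjusted p = 0.0115), and its difference between DSS + EA and DSS had an adjusted p of 0.0978. The receptor Pparg, which is prominent in the colonic epithelium, was at 47.2, 44.2 and 96.4 CPM in control, at 44.1, 8.15 and 3.71 CPM in DSS and at 55.1, 78.2 and 51.4 CPM in DSS + EA. DSS mouse 1 was just under the lowest control mouse, while the other DSS mice were far below. The log2 fold change of -1.76 ± 0.71 did not pass (adjusted p = 0.0738), and without DSS mouse 1 it was -3.37 with an adjusted p of 0.000494. DSS + EA exceeded DSS by 1.73 ± 0.71 (adjusted p = 0.0821), and by 3.35 without DSS mouse 1 (adjusted p = 0.000707).

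The coactivator Ppargc1a, which raises mitochondrial number and oxidation, was at 7.32, 7.91 and 7.62 CPM in control, at 1.92, 1.501 and 0.927 CPM in DSS and at 4.54, 9.27 and 2.52 CPM in DSS + EA. The DSS mice did not overlap either group, while the DSS + EA mice ranged from near DSS to above control. It fell by 2.36 ± 0.49 in DSS (adjusted p = 0.00438) and was 3.62-fold higher in DSS + EA than in DSS (adjusted p = 0.0184). Pdk4, a kinase of the pyruvate dehydrogenase complex and a textbook PPAR target, had 3 to 9 reads per control mouse, 1 to 6 per DSS mouse and 0 to 3 per DSS + EA mouse, too few to test.

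Of the 2 butyrate transporters 1 fell in DSS and the other did not pass. Slc5a8, the sodium-coupled transporter of the apical membrane, was at 78.7, 78.8 and 55.6 CPM in control, at 37.1, 10.9 and 4.94 CPM in DSS and at 69.6, 46.0 and 47.9 CPM in DSS + EA. It was 4.05-fold lower in DSS (adjusted p = 0.0173) and 3.11-fold higher in DSS + EA than in DSS (adjusted p = 0.0454). Slc16a1, the proton-coupled transporter MCT1, was at 29.3, 29.0 and 26.3 CPM in control, at 14.1, 26.8 and 22.2 CPM in DSS and at 18.2, 14.5 and 14.5 CPM in DSS + EA. Its DSS range reached that of control, and all DSS + EA mice were below all control mice. The log2 fold change was -0.41 ± 0.25 in DSS (adjusted p = 0.214) and -0.43 ± 0.26 in DSS + EA against DSS (adjusted p = 0.209). Without DSS mouse 1 the latter was -0.62 with an adjusted p of 0.0335.

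The acyl-CoA synthetases, which activate fatty acids for oxidation or for lipid synthesis, did not move together. Acsf2, a mitochondrial synthetase of medium chains, was at 20.4, 20.4 and 38.5 CPM in control, at 7.99, 4.29 and 1.85 CPM in DSS and at 11.2, 24.8 and 6.94 CPM in DSS + EA. The DSS mice were below every control mouse, and DSS + EA mouse 3 lay within the DSS range. It was 5.58-fold lower in DSS (adjusted p = 0.00697), with an adjusted p of 0.0543 in DSS + EA against DSS. Acsl1, a synthetase of long chains, was at 9.84, 13.5 and 9.14 CPM in control and at 10.9, 19.1 and 28.4 CPM in DSS, so that the groups overlapped (log2 fold change 0.85 ± 0.42, adjusted p = 0.132). Without DSS mouse 1 its log2 fold change was 1.10 with an adjusted p of 0.0399, the only member that then rose. Acsl5, a long-chain synthetase of the intestinal epithelium, ranged from 39.6 to 54.5 CPM in control and from 34.5 to 48.2 CPM in DSS (adjusted p = 0.532).

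In the carnitine shuttle the inner-membrane steps moved and the outer-membrane step did not pass. Cpt2, which transfers the acyl group back to coenzyme A inside the mitochondrion, was at 57.8, 48.8 and 56.4 CPM in control, at 16.3, 8.79 and 9.89 CPM in DSS and at 52.3, 45.6 and 55.8 CPM in DSS + EA. The DSS mice stood apart from both other groups, which overlapped. Cpt2 was 4.67-fold lower in DSS (adjusted p = 0.0002) and 4.40-fold higher in DSS + EA than in DSS (adjusted p = 0.000534). Slc25a20, the carnitine-acylcarnitine carrier, was at 226, 205 and 217 CPM in control, at 94.9, 50.4 and 42.6 CPM in DSS and at 297, 254 and 309 CPM in DSS + EA. Among the 36 tested members it was the only one with all DSS + EA mice above all control mice, a pattern that 18% of all tested genes had. The difference was 0.41 ± 0.27 on the log2 scale (adjusted p = 0.494). Slc25a20 was 3.44-fold lower in DSS (adjusted p = 0.00102) and 4.57-fold higher in DSS + EA than in DSS (adjusted p = 0.00073). Cpt1a, the outer-membrane transferase that malonyl-CoA inhibits, was at 64.6, 48.1 and 54.5 CPM in control and at 60.1, 30.2 and 17.0 CPM in DSS (log2 fold change -0.64 ± 0.38, adjusted p = 0.198). Without DSS mouse 1 it was -1.25 with an adjusted p of 0.00489.

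**Figure D4:**
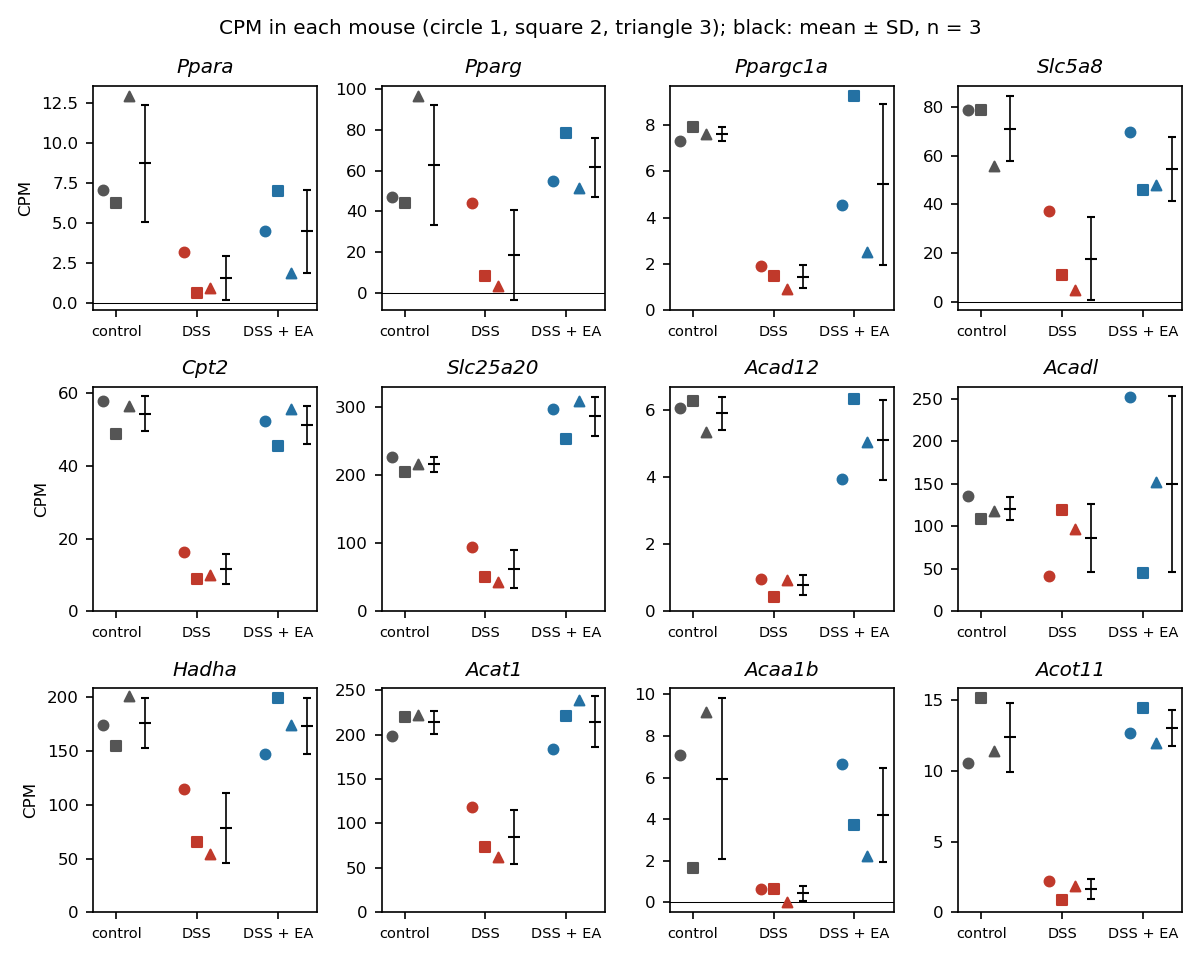
CPM of 12 members in each mouse (points; circle, square and triangle are mice 1, 2 and 3) with the mean and SD of each group of 3 (black bars); all axes are linear. All but Ppara and Acadl separate the DSS mice from both other groups, and Acadl is spread widely within DSS and within DSS + EA.

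Of the 6 acyl-CoA dehydrogenases, which take the first 2 electrons from the chain, 4 fell in DSS. Acadvl, for very long chains, was at 119, 112 and 138 CPM in control, at 52.1, 50.4 and 29.7 CPM in DSS and at 87.4, 99.0 and 94.6 CPM in DSS + EA. The 3 groups did not overlap, with DSS + EA between DSS and control. It fell by 1.48 ± 0.23 in DSS (adjusted p = 0.000953) and was 2.12-fold higher in DSS + EA than in DSS (adjusted p = 0.00612). Acadm, for medium chains, was 2.55-fold lower in DSS (adjusted p = 0.00896), and its adjusted p was 0.118 in DSS + EA against DSS. Acads, the short-chain enzyme that acts on butyryl-CoA, was at 130, 118 and 196 CPM in control, at 99.3, 29.8 and 14.8 CPM in DSS and at 110, 172 and 101 CPM in DSS + EA. DSS mouse 1 again lay just below control, and Acads was 3.08-fold lower in DSS (adjusted p = 0.0439) with an adjusted p of 0.076 in DSS + EA against DSS. Acadsb, of branched short chains, had means of 18.6 ± 1.69, 18.1 ± 4.58 and 19.6 ± 7.59 CPM in control, DSS and DSS + EA.

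Acadl, for long chains, did not follow the order of the mice seen in most members. It was at 135, 109 and 118 CPM in control, at 41.8, 119 and 97.0 CPM in DSS and at 252, 44.9 and 152 CPM in DSS + EA. DSS mouse 1 and DSS + EA mouse 2, the highest mice of their groups for most members, were the lowest here. The log2 fold change was -0.48 ± 0.53 in DSS (adjusted p = 0.497) and 0.79 ± 0.53 in DSS + EA against DSS (adjusted p = 0.269), and without DSS + EA mouse 2 the latter was 1.26 with an adjusted p of 0.0459. Slc16a1 and Acaa1a had the same order of mice within DSS and within DSS + EA. Acaa1a, a peroxisomal thiolase, was at 14.7, 42.0 and 35.8 CPM in DSS and at 77.8, 23.0 and 43.5 CPM in DSS + EA, against 86.5, 76.2 and 97.9 CPM in control.

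Acad12, a less studied relative of this family, was among the 3 members with the thresholds of a DEG. It was read 24, 19 and 14 times in the control mice, 3, 2 and 3 times in the DSS mice and 13, 17 and 16 times in the DSS + EA mice. In CPM this was 6.05, 6.26 and 5.33 in control, 0.958, 0.429 and 0.927 in DSS and 3.93, 6.30 and 5.04 in DSS + EA. The DSS mice, with at most 3 reads each, were below all others. Acad12 was 7.64-fold lower in DSS (log2 fold change -2.93 ± 0.40, adjusted p = 0.00052) and 6.56-fold higher in DSS + EA than in DSS (adjusted p = 0.0014).

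The other 2 DEGs were the peroxisomal thiolase Acaa1b and the thioesterase Acot11, which releases long-chain fatty acids from coenzyme A. Acaa1b was read 28, 5 and 24 times in control, 2, 3 and 0 times in DSS and 22, 10 and 7 times in DSS + EA. Control mouse 2 was nearer to DSS than to the other control mice, and with so few reads in DSS the fold depends on the prior count of the fit. Acaa1b was 12.2-fold lower in DSS (log2 fold change -3.61 ± 0.84, adjusted p = 0.00735) and 8.71-fold higher in DSS + EA than in DSS (adjusted p = 0.0199). The longest transcripts of Acaa1b and Acaa1a are 92.9% identical over 1637 aligned bases, and how such reads were assigned is not given in the sources used here. Acot11 was at 10.6, 15.2 and 11.4 CPM in control, at 2.24, 0.858 and 1.85 CPM in DSS and at 12.7, 14.5 and 12.0 CPM in DSS + EA. It was 7.64-fold lower in DSS (adjusted p = 0.000272) and 8.04-fold higher in DSS + EA than in DSS (adjusted p = 0.000534). In DSS 3 members were DEGs, all lower, where 3.57% of all tested genes were lower DEGs. Between DSS + EA and DSS the same 3 were DEGs, all higher, where 2.91% of all tested genes were higher DEGs. Without DSS mouse 1 there were 10 lower DEGs in DSS and 6 higher in DSS + EA against DSS, without DSS mouse 2 there was 1 of the latter, and without control mouse 1, control mouse 2 or DSS + EA mouse 2 there were 5 of the former. The share of DEGs over all tested genes was not counted in these fits.

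The DNA before these 3 genes is shown because they changed most, with the C and G of each CpG in capitals. Each run is the 250 bases before a RefSeq transcript start in build GRCm38.p6, written along the gene's strand, and all 3 genes lie on the minus strand. Acad12 is preceded by chr5:121618939-121619188, Acaa1b by chr9:119157094-119157343 and the longer Acot11 transcript by chr4:106805008-106805257.
Acad12: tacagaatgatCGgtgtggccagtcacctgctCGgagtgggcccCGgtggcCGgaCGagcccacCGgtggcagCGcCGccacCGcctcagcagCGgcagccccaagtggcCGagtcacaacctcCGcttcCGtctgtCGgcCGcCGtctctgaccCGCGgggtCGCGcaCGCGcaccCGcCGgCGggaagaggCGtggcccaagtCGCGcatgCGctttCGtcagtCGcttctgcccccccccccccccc
Acaa1b: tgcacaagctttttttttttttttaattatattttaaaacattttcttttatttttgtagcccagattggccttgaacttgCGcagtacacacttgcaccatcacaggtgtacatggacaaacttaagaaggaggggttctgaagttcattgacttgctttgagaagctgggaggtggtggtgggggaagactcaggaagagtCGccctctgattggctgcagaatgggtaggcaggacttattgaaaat
Acot11: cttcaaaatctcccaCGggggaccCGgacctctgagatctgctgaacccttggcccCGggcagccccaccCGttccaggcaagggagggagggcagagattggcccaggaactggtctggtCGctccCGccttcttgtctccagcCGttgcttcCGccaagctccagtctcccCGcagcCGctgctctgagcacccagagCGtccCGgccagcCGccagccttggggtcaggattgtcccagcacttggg
The windows hold 31, 2 and 13 CpGs, against a median of 6 over 32851 windows of all genes and of 12 over 41 windows of 35 members. Their GC content is 73.2%, 41.6% and 66.4%, so that the 3 members with the largest changes do not share a CpG-rich or a CpG-poor start. The member windows were also searched, with 50 bases after the start added, for motifs on both strands. AGGTCA, the single element of PPAR and related receptors, lay in a window of 6 of the 35 members (Acadm, Acadvl, Acot12, Cpt1a, Echs1 and Pparg) and of 18.1% of all 27025 genes. A direct repeat of AGGTCA with 1 base between the copies, the form PPAR and RXR bind together, lay in 0 of the 35 members and in 0.0481% of all genes, and TCAAGGTCA, the element of estrogen-related receptors, in 0 of 35 and 0.466%. Both longer motifs contain the shorter one. At such low shares of all genes, 0 is likely for any 35 genes. The search for the longer motifs therefore cannot tell the members from other genes. The palindromic E-box CACGTG lay in windows of Acot11 and Slc16a1 and of 8.09% of all genes. For Acot11 it lay not in the run printed above but before the other transcript start, in chr4:106799832-106800081, which holds 8 CpGs.

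All 3 genes of electron transfer fell in DSS and were higher in DSS + EA than in DSS. Etfb, the beta subunit of the electron transfer flavoprotein, was at 455, 412 and 499 CPM in control, at 256, 156 and 149 CPM in DSS and at 349, 432 and 394 CPM in DSS + EA. Its DSS mice lay below all others, and it fell by 1.28 ± 0.23 in DSS (adjusted p = 0.00214) and was 2.09-fold higher in DSS + EA than in DSS (adjusted p = 0.00706). The alpha subunit Etfa was 2.19-fold lower in DSS (adjusted p = 0.00829) and 2.02-fold higher in DSS + EA than in DSS (adjusted p = 0.0161). Etfdh, which passes the electrons on to ubiquinone, was 2.40-fold lower in DSS (adjusted p = 0.00416) and 1.97-fold higher in DSS + EA than in DSS (adjusted p = 0.0165).

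Hadha and Hadhb encode the alpha and beta subunits of the mitochondrial trifunctional protein, which carries out the last 3 steps on long chains. They lie head to head on chromosome 5, at 30118304 to 30155162 on the minus strand and 30155248 to 30184593 on the plus strand, with 85 bases between the annotated starts. The sequence between them, chr5:30155163-30155247 on the plus strand, is shown because the pair shares it, with CpGs in capitals.
Hadha and Hadhb: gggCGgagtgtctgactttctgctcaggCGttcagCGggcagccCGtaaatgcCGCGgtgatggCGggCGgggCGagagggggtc
It holds 9 CpGs and no CACGTG or AGGTCA. Hadha was at 174, 154 and 201 CPM in control, at 115, 65.4 and 54.4 CPM in DSS and at 147, 199 and 174 CPM in DSS + EA. Hadhb was at 193, 195 and 214 CPM in control, at 132, 59.8 and 74.1 CPM in DSS and at 163, 182 and 151 CPM in DSS + EA. For both genes DSS mouse 1 was the highest DSS mouse and still below every mouse of the other groups. The falls in DSS were alike, with log2 fold changes of -1.17 ± 0.28 for Hadha (adjusted p = 0.00802) and -1.18 ± 0.27 for Hadhb (adjusted p = 0.0069). Between DSS + EA and DSS they were 1.14 ± 0.28 for Hadha (adjusted p = 0.0111) and 0.90 ± 0.27 for Hadhb (adjusted p = 0.0272). The use of strand in the counting is not given in the sources used here.

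Of the other later steps, Eci1 had the largest fall. Eci1, an isomerase that moves double bonds of unsaturated chains, was at 75.9, 75.5 and 84.6 CPM in control, at 28.4, 16.1 and 17.0 CPM in DSS and at 56.0, 62.3 and 53.9 CPM in DSS + EA. The 3 groups did not overlap. It was 3.84-fold lower in DSS (adjusted p = 0.000284) and 2.80-fold higher in DSS + EA than in DSS (adjusted p = 0.00168). Its relative Eci2 was at 68.1, 76.8 and 81.1 CPM in control, at 124, 72.04 and 93.6 CPM in DSS and at 70.5, 92.7 and 68.4 CPM in DSS + EA, with overlapping groups (log2 fold change 0.36 ± 0.23, adjusted p = 0.23).

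Decr1, the dienoyl-CoA reductase that prepares polyunsaturated chains for oxidation, was at 95.9, 95.6 and 112 CPM in control, at 55.3, 22.7 and 23.8 CPM in DSS and at 85.6, 94.6 and 93.0 CPM in DSS + EA, 2.99-fold lower in DSS (adjusted p = 0.00365) and 2.68-fold higher in DSS + EA than in DSS (adjusted p = 0.0078). Hadh, the dehydrogenase of short and medium hydroxyacyl chains, was 3.16-fold lower in DSS (adjusted p = 0.00826) and 2.18-fold higher in DSS + EA than in DSS (adjusted p = 0.048). Acaa2, the mitochondrial thiolase, was 2.41-fold lower in DSS (adjusted p = 0.0295), with an adjusted p of 0.161 in DSS + EA against DSS. Echs1, the short-chain hydratase, was at 209, 85.5 and 123 CPM in DSS against 161 to 217 CPM in control and did not pass (adjusted p = 0.331), but without DSS mouse 1 its log2 fold change was -0.82 with an adjusted p of 0.0133. Short-chain steps included members that fell, such as Acads and Hadh, and members that did not pass, such as Echs1 and Acadsb.

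Both ketone body enzymes fell in DSS, and their DSS + EA mice overlapped control. Acat1, the mitochondrial thiolase that makes and splits acetoacetyl-CoA, was at 199, 220 and 222 CPM in control, at 119, 73.5 and 61.8 CPM in DSS and at 183, 221 and 239 CPM in DSS + EA. It was 2.51-fold lower in DSS (adjusted p = 0.00236) and 2.52-fold higher in DSS + EA than in DSS (adjusted p = 0.00337). Bdh1, which interconverts acetoacetate and beta-hydroxybutyrate, was at 84.8, 91.3 and 113 CPM in control, at 70.9, 40.7 and 31.8 CPM in DSS and at 96.8, 101 and 93.9 CPM in DSS + EA. It was 2.01-fold lower in DSS (adjusted p = 0.0159) and 2.03-fold higher in DSS + EA than in DSS (adjusted p = 0.0178).

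In peroxisomes all 5 tested genes fell in DSS, and 2 of them, Acaa1b and Crot, were higher in DSS + EA than in DSS. Beside Acaa1b, described above, Acaa1a was 2.79-fold lower in DSS (adjusted p = 0.0255), and its log2 fold change of 0.63 ± 0.45 in DSS + EA against DSS did not pass (adjusted p = 0.294). Ehhadh, the bifunctional enzyme and a PPARA target, was at 13.9, 7.25 and 20.2 CPM in control and at 8.94, 2.79 and 2.47 CPM in DSS, with overlapping groups and an adjusted p of 0.0377, and in DSS + EA against DSS its log2 fold change of 1.28 ± 0.53 had an adjusted p of 0.0834. Hsd17b4, the bifunctional enzyme of branched chains, was 1.57-fold lower in DSS (adjusted p = 0.0446), with a log2 fold change of 0.46 ± 0.23 and an adjusted p of 0.138 in DSS + EA against DSS. Crot, which makes carnitine esters for export to mitochondria, was 1.65-fold lower in DSS (adjusted p = 0.0389) and 1.74-fold higher in DSS + EA than in DSS (adjusted p = 0.0298). Acox2, the oxidase of branched chains and bile acid precursors, had 0 to 6 reads in a mouse, and the thioesterase Acot12 had 0 to 3.

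**Figure D5:**
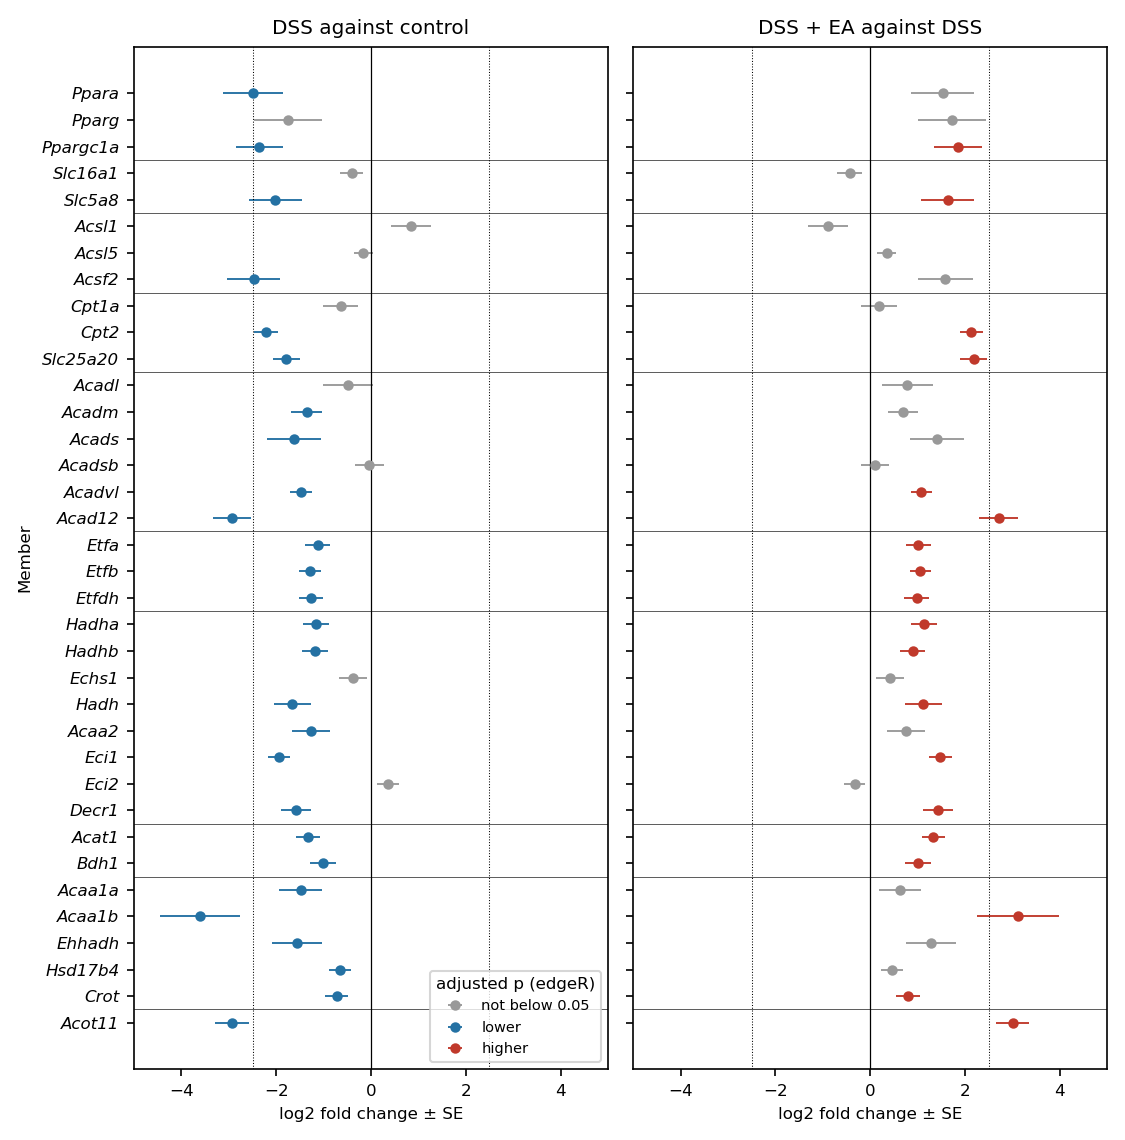
Log2 fold changes with SE of the 36 tested members, in the order of their roles, for DSS against control (left) and DSS + EA against DSS (right). Blue and red points passed an adjusted p of 0.05 as lower and higher, grey points did not, and dotted lines mark 2.5. On the left 27 points are blue and on the right 19 are red, and Acad12, Acaa1b and Acot11 pass the dotted lines in both panels.

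Some of these calls were lost when 1 mouse was left out. Each such fit also has fewer mice, so that a loss does not show that the mouse carried the call. In DSS against control 19 of the 27 calls were kept whichever of the 9 mice was left out. The other 8 were Slc5a8, Acads, Acaa2, Bdh1, Acaa1a, Ehhadh, Hsd17b4 and Crot. Slc5a8 was lost without DSS mouse 2 (adjusted p = 0.0636), Bdh1 without control mouse 3 or DSS mouse 2 (at most 0.0576) and Acaa1a without control mouse 1 or 3 (at most 0.0638). Acaa2 and Ehhadh were lost without control mouse 1 or 3 or DSS mouse 2 or 3, with adjusted p values of at most 0.0999 and 0.13. Crot was lost without control mouse 2 or 3 or DSS mouse 2 or 3 (at most 0.129). Acads and Hsd17b4 passed only with all mice or without DSS mouse 1 (at most 0.137 and 0.131).

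Of the 19 calls in DSS + EA against DSS 10 were kept whichever mouse was left out, and these were Acad12, Acadvl, Acat1, Acot11, Cpt2, Decr1, Eci1, Etfb, Hadha and Slc25a20. Each of the other 9 was lost without DSS mouse 2. Acaa1b was also lost without DSS + EA mouse 1, Etfa without mouse 2 and Bdh1 and Etfdh without mouse 3 of that group, and Ppargc1a without DSS mouse 3 or DSS + EA mouse 2. The highest adjusted p values of these 5 were 0.0741, 0.0529, 0.0596, 0.054 and 0.0653. Crot was also lost without DSS mouse 3 or DSS + EA mouse 1 or 2 (at most 0.0836), and Hadhb without DSS mouse 3 or any DSS + EA mouse (at most 0.0768). Hadh and Slc5a8 passed only with all mice or without DSS mouse 1 (at most 0.139 and 0.138). The control mice are not in this comparison. Without any 1 of them the log2 fold changes of Hadh and Slc5a8 were 1.15 and 1.66, against 1.12 and 1.63 with all mice.

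In DSS + EA against control none of the 36 members passed in edgeR or in DESeq2 over all 3 groups, where 3% of all tested genes were higher and 0.637% lower in edgeR. An edgeR fit of these 2 groups alone called 3 members lower, Slc16a1 (adjusted p = 0.019), Acadm (adjusted p = 0.0329) and Hadh (adjusted p = 0.0433). In that fit 359 of 11338 tested genes were lower and 790 higher. The values that follow are from the fit of all 3 groups. The unadjusted p was under 0.05 for 1 member, Slc16a1, which was 1.79-fold lower (log2 fold change -0.84 ± 0.26, unadjusted p = 0.00817, adjusted p = 0.117). The median log2 fold change was -0.21, against 0.00 over all tested genes, with 26 members below 0 and 10 above. All 3 DSS + EA mice were below all 3 control mice for 9 members (Slc16a1, Cpt1a, Acadm, Acadvl, Etfdh, Hadhb, Hadh, Eci1 and Decr1), where 14.2% of all tested genes did so. Without DSS mouse 1, Slc16a1 (adjusted p = 0.0327) and Acadm (adjusted p = 0.0486) were called lower, since the spread is estimated over all groups. In that fit 173 of 13341 tested genes were lower. A level that did not differ from control at this number of mice is not shown to equal it.

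Other genes of the pathway were read from a wider list of oxidation and ketone body genes. This list and those below were chosen with earlier results of these data known, and their values use TMM scaling only. Of the 44 tested genes of the wider list 29 (65.9%) fell and 3 rose in DSS. Of all tested genes 19.5% fell and 21.5% rose. In DSS + EA against DSS 24 (54.5%) were higher and 2 lower, where 17.2% of all tested genes were higher. Oxct1, which spends ketone bodies, was 3.42-fold lower in DSS (adjusted p = 0.000472) and 2.24-fold higher in DSS + EA than in DSS (adjusted p = 0.00537). Pcca, of propionyl-CoA carboxylase, was 5.09-fold lower in DSS (adjusted p = 0.00015).

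Acsl4, a synthetase with a preference for arachidonic acid, went the other way, from 4.73 ± 0.381 CPM in control to 41.2 ± 5.84 CPM in DSS (8.73-fold higher, adjusted p = 3.49e-05) and 9.60 ± 2.05 CPM in DSS + EA. Bdh2, a cytosolic dehydrogenase, was 2.62-fold higher in DSS (adjusted p = 0.0117).

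Of 8 tested genes of butyrate and lactate transport and sensing, 3 (37.5%) fell and 3 (37.5%) rose in DSS, where 19.5% of all tested genes fell and 21.5% rose. Bsg, the chaperone that carries MCT1 to the membrane, fell from 570.0 ± 78.1 to 166 ± 13.8 CPM (adjusted p = 0.000149) and was at 439 ± 66.5 CPM in DSS + EA. Ffar2, a receptor for short-chain fatty acids, was 9.57-fold lower in DSS (adjusted p = 0.00105) and 5.82-fold higher in DSS + EA than in DSS (adjusted p = 0.00522). Emb, the related chaperone embigin, rose from 3.40 ± 0.69 to 76.9 ± 52.7 CPM in DSS (adjusted p = 0.000284) and was lower in DSS + EA, at 9.87 ± 1.01 CPM (adjusted p = 0.00214). The butyrate and niacin receptor Hcar2 rose from 0.683 ± 0.315 to 8.85 ± 8.57 CPM in DSS (adjusted p = 0.00825) and was at 5.53 ± 2.57 CPM in DSS + EA. The lactate exporter Slc16a3 was 4.81-fold higher in DSS (adjusted p = 0.00842), and in DSS + EA against DSS its adjusted p was 0.835.

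The lists of PPAR targets and PPAR partners had shares nearer to those of all genes in DSS against control. Other lists outside the pathway did not, such as the TCA cycle (58.8% fell) and smooth muscle markers (70% fell). Of 14 tested PPAR targets outside the members 4 (28.6%) fell and 0 rose in DSS, against 19.5% of all tested genes that fell, so that this count is not a result about PPAR targets. Among the 4 was the lipid droplet gene Cidec, 5.58-fold lower (adjusted p = 0.00415) and also an adipocyte marker. In DSS + EA against DSS 6 of the 14 targets (42.9%) were higher and 0 lower, where 17.2% of all tested genes were higher. Of 14 tested partners of the PPARs 4 (28.6%) fell and 1 rose, which is likewise near the share of all genes. In DSS + EA against DSS 4 of these partners (28.6%) were higher and 2 lower. Hnf4g, a nuclear receptor of the intestinal epithelium, went from 6.28 ± 1.73 to 0.321 ± 0.322 CPM in DSS (adjusted p = 0.000764) and was at 4.10 ± 1.20 CPM in DSS + EA. The mitochondrial deacetylase Sirt3 was 3.51-fold lower in DSS (adjusted p = 0.000271), and the coactivator Ppargc1b was 3.74-fold lower (adjusted p = 0.00174) and 3.61-fold higher in DSS + EA than in DSS (adjusted p = 0.00305). The coactivator Ncoa1 was 2.38-fold higher in DSS (adjusted p = 0.00807). Ppard, the third PPAR, did not pass in DSS (log2 fold change -0.70 ± 0.31, adjusted p = 0.0988).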

How the data were processed

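Colon RNA of 9 mice was sequenced as full-length cDNA on the Nanopore PromethION platform, and the authors deposited a table of raw read counts per gene. The build is mm10 per the submitters' processing notes, while the aligner, counter, gene annotation and use of strand are not given in the sources used here. Of 27733 lines 14 were skipped and 27719 genes kept. Counts were filtered by filterByExpr, leaving 12566 genes, scaled with TMM and tested over all 9 libraries with edgeR 4.0.16 (quasi-likelihood test, prior count 0.125) in R 4.3.3, with Benjamini-Hochberg adjustment over all genes. The study's methods name DESeq2, and DESeq2 1.42.0 was an alternative. The 3 groups are those of the labels, 3 mice each, and the comparisons share groups. The fits were tested on simulated data. Alternatives changed the tool, scaling, filter, samples, prior, threshold or replicate block, or left out a mouse. Depth was 2627695 to 4235576 reads, and 3 reads equal 0.643 to 1.14 CPM by library. Precision is limited by counting error and by 3 mice per group, and reads come from PCR without molecular identifiers.

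Members and gene lists were chosen with earlier results of these data known. All members are named; of other pathway lists, the 2 genes with the smallest unadjusted P in each direction in DSS against control among genes past the threshold; and further genes chosen by name, among them Oxct1, Slc16a3, Bsg, Ppard and Ppargc1b. Some genes that this rule names are not reported here. Promoter windows came from RefSeq (GRCm38.p6) and were read with Python 3.11.15 and pandas 2.3.3, positions from the GENCODE annotation of GRCm38, and transcript identity from Biopython 1.88.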

Additional observations from a re-analysis of the deposited data

How the results depend on the processing

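Scaling to the epithelial markers changed the results, as the report gives. It left 5 members past the threshold in DSS against control and 6 in DSS + EA against DSS. Of all calls 4.61% were lower in the first comparison and 95.7% in the second. This scaling also gave the changes that follow. It gave 1 DEG in each, Acsl1, higher in DSS (log2 fold change 2.74) and lower in DSS + EA than in DSS (-2.68). It left none of the DEGs found with TMM. In DSS against control it turned the log2 fold change above 0 for Acsl5 (1.58), Acadm (0.036), Acadsb (1.72), Acadvl (0.0031), Etfa (0.35), Etfb (0.24), Etfdh (0.22), Hadha (0.27), Hadhb (0.33), Acaa2 (0.0070), Acat1 (0.14), Bdh1 (0.41), Acaa1a (0.34), Hsd17b4 (0.94) and Crot (0.88), and for Slc16a1 (1.31), Cpt1a (0.63), Acadl (1.33) and Echs1 (1.16), which passed with neither scaling. In DSS + EA against DSS it turned it below 0 for Acadsb (-1.53), Acadvl (-0.27), Etfa (-0.34), Etfb (-0.33), Etfdh (-0.39), Hadha (-0.17), Hadhb (-0.50), Hadh (-0.068), Acat1 (-0.011), Bdh1 (-0.28) and Crot (-0.69), and for Acsl5 (-1.28), Cpt1a (-0.95), Acadl (-0.97), Acadm (-0.57), Echs1 (-0.9996), Acaa2 (-0.38), Acaa1a (-1.12) and Hsd17b4 (-1.001), which passed with neither scaling. The cause was not tested.

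Over the other alternatives the members past the threshold in DSS against control numbered 18 to 31, with DESeq2 giving 27 and leave-one-out 20 to 31, and in DSS + EA against DSS DESeq2 gave 22, an adjusted p under 0.01 gave 9 and leave-one-out 10 to 31. In DSS + EA against control only the fit of the 2 groups compared (3) and leave-one-out (0 to 2) gave any. DEGs in DSS against control numbered 5 with no filter, 1 with a mean of at least 20 counts, 5 with the replicate block, 22 with a log2 fold change minimum of 1 and 3 to 10 on leave-one-out. In DSS + EA against DSS they numbered 1 with a mean of at least 20 counts, 1 with a prior count of 2, 14 with a minimum of 1 and 1 to 6 on leave-one-out. Same-numbered mice did not deviate together, with correlations of deviations from -0.157 to 0.0966. These values gave no sign that the numbers pair the mice, but they cannot exclude a shared day or batch. With the replicate block 24 members passed in DSS against control and 18 in DSS + EA against DSS. Genes under about 10 reads per mouse, such as Acaa1b, are those that depth limits.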

Other observations

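Other pathways of the mitochondrion and peroxisome were counted with TMM scaling only, where 19.5% of all tested genes fell in DSS and 17.2% were higher in DSS + EA than in DSS. Of 17 tested genes of the TCA cycle 10 (58.8%) fell and 0 rose in DSS, and 8 (47.1%) were higher and 0 lower in DSS + EA against DSS. Fh1, which hydrates fumarate, had a log2 fold change of -1.18 in DSS (edgeR adjusted p = 0.0038), and Suclg2, a subunit of succinyl-CoA ligase, -1.26 (adjusted p = 0.00509). Of 12 tested genes of the pyruvate dehydrogenase complex and its kinases and phosphatases 5 (41.7%) fell in DSS and 4 (33.3%) were higher in DSS + EA against DSS. The kinase Pdk2 had a log2 fold change of -1.93 in DSS (adjusted p = 0.000599), and the phosphatase Pdp2 -2.48 (adjusted p = 0.00762).

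Of 17 tested genes of peroxisome biogenesis 7 (41.2%) fell in DSS and 5 (29.4%) were higher in DSS + EA against DSS, with log2 fold changes in DSS of -2.43 for Pex6 (adjusted p = 0.00128) and -2.06 for Pex11g (adjusted p = 0.00255), both needed to build or divide peroxisomes. Of 17 tested genes of mitochondrial import and chaperones 1 (5.88%) fell in DSS, the channel gene Vdac3 (log2 fold change -1.38, adjusted p = 0.00234), and 3 (17.6%) were higher in DSS + EA against DSS. The first share is below that of all tested genes and the second is near it.

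Other cell types also moved. In DSS all 11 neutrophil, 9 of 10 fibroblast and 4 of 4 erythrocyte markers rose, 7 of 10 smooth muscle markers and 4 of 6 markers of colon position fell, and of 9 adipocyte markers 5 fell and 1 rose. Over all tested genes 21.5% rose and 19.5% fell in DSS. All 15 pancreatic acinar genes were higher in DSS + EA than in DSS, where 17.2% of all tested genes were higher. The part of these cell types in the results on fatty acid oxidation was not tested.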
